A study of Mus musculus with 22 samples.

Results

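The genes described here are 9 genes by which motor neurons and their subtypes are recognised, out of 21995 genes measured in mouse spinal cord. They were chosen by name and by role with earlier results of both comparisons known, so their own values are given as a description and no p-value is printed for them. Chodl and Mmp9 mark fast alpha motor neurons. Isl1, Isl2, Mnx1, Lhx4 and Calca are grouped here as pan-motor-neuron genes. Whether each is present in every adult motor neuron was not tested. Esrrb and Esrrg mark gamma or slow motor neurons. All 9 genes passed the filter on low counts in both comparisons.

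RNA-seq was performed on whole spinal cords of C57BL/6 mice in 2 experiments. The first held 8 young wild-type males of 3 to 4 months and 8 old wild-type males of 18 to 24 months. The second held 3 mice labelled G93a, symptomatic carriers of human SOD1 bearing the G93A mutation, and 3 wild-type controls, all of 5 to 6 months by the labels and 2 females and 1 male in each group by the study's methods. The 2 experiments were prepared with different library kits (Roche KAPA for the aging libraries, Illumina TruSeq for the others), so each comparison was kept within its own experiment. The transgene is driven by the human SOD1 promoter and so is active in all tissues, not in motor neurons alone, and whole cord mixes motor neurons with every other cell of the tissue.

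Motor neurons are the only neurons of the spinal cord whose axons leave it to drive muscle. Alpha motor neurons contract the ordinary fibres of a muscle and are divided into fast and slow types by the fibres they reach, and gamma motor neurons set the tension of the stretch-sensing fibres of muscle spindles. In amyotrophic lateral sclerosis (ALS) and in SOD1-G93A mice the fast alpha neurons are known to be lost first. Isl1, Isl2, Mnx1 and Lhx4 encode homeodomain transcription factors that specify motor neurons in the embryo, and they persist at low levels in the adult.

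The libraries held 5078092 to 9358055 counts in young, 5664869 to 9145600 in old, 10693060 to 13219797 in control and 9675610 to 11872431 in SOD1-G93A mice. Levels are given in CPM, the counts of a gene relative to the library total, scaled between libraries by the trimmed mean of M-values (TMM), and 3 counts correspond to 0.32 to 0.582 CPM in the aging libraries and 0.231 to 0.302 CPM in the others. Sod1, which checks the labels, lay at 156 to 168 CPM in control and 296 to 335 CPM in SOD1-G93A libraries. Reads of the human transgene may be part of the mouse Sod1 count. Genes that define sensory neurons of the dorsal root ganglion and skeletal muscle were also summed, as these tissues could adhere to the cord. The 15 sensory genes summed to 71.8 to 123 CPM over all libraries (mostly Sncg and Calcb, with Mrgprd and Mrgprx1 at 0 in both experiments). That was above the 16.7 to 52.4 CPM of the 5 pan-motor-neuron members together. The 8 muscle genes (led by Mylpf and Tnni2, with Myh4 at 0 in the second experiment) summed to 1.48 to 8.21 CPM.

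The 9 genes are protein-coding, lie on 8 chromosomes, and have no exon that overlaps one of another gene (GRCm38, GENCODE M21). Chodl (ENSMUSG00000022860) lies at chr16:78930948-78951733 and Isl2 (ENSMUSG00000032318) at chr9:55538672-55546180, both on the plus strand. Isl1 (ENSMUSG00000042258) lies at chr13:116298281-116309689 on the minus strand. The 250 bases before the RefSeq start sites of these 3 are shown because Chodl and Isl2 were the members lowest in SOD1-G93A mice relative to control and Isl1 the member nearest to its control level on the log2 scale. The windows (GRCm38.p6) are chr16:78930698-78930947 for Chodl, chr9:55540899-55541148 for Isl2 and chr13:116309689-116309938 for Isl1, each read on its own gene's strand, and capitals mark the E-box CAGCTG.
Chodl: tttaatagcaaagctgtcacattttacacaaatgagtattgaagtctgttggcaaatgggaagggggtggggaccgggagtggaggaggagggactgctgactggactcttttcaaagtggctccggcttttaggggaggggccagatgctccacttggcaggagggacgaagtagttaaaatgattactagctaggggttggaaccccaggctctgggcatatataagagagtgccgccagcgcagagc
Isl2: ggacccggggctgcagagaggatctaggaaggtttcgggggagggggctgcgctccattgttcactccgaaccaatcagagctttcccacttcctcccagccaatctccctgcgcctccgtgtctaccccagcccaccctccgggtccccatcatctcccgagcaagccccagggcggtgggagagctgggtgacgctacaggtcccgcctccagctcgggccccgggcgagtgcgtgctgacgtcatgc
Isl1: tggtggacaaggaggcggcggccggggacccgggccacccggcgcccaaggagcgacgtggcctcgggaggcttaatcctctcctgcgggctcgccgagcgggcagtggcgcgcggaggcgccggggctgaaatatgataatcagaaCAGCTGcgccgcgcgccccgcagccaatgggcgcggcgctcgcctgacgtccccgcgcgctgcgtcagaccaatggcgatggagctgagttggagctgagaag

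Before its start, Chodl had 52% G and C and 5 CpG pairs, Isl2 66.8% and 16, and Isl1 71.2% and 33. RefSeq windows of 250 bases before to 50 after a start were matched for 8 of the 9 genes, 12 windows in all (Mmp9 had none). The palindromes TAATTA, a core bound by LIM-homeodomain factors, and CAGCTG and the sequence AAGGTCA, a half-site of estrogen-related receptors, were searched on both strands. AAGGTCA was in 0 of the 12 windows and in 4.72% of all 32851 windows, and TAATTA in 0 of the 12 and in 5.29% of all. CAGCTG was in 4 of the 12, those of Mnx1, Calca and Isl1 and 1 of the 2 of Esrrb, against 16.3% of all. In Isl1 it began 103 bases before the start. These are matches of letters only.

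Per transcript length, on the scale of log2 of FPKM plus 1, the 9 genes spanned a wide range of levels in young cords. Calca, which encodes the neuropeptide CGRP, stood first at 4.72 ± 0.30 (SD, n = 8), followed by Esrrg at 4.12 ± 0.09 and Chodl at 3.97 ± 0.16. Mmp9 at 2.61 ± 0.22 and Esrrb at 1.93 ± 0.16 came next. Lhx4 (1.52 ± 0.12), Mnx1 (1.31 ± 0.17), Isl2 (1.29 ± 0.28) and Isl1 (1.19 ± 0.36) closed the order, and the last 3 did not differ beyond their spread. In 4 of 8 young libraries Mnx1 lay above Isl2. The first 5 places held the same order in old and in control mice. In SOD1-G93A mice Chodl, at 1.36 ± 0.12 (n = 3), stood behind Mmp9 at 1.50 ± 0.39 and overlapped it, and Lhx4 was last at 0.60 ± 0.25.

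**Figure D1:**
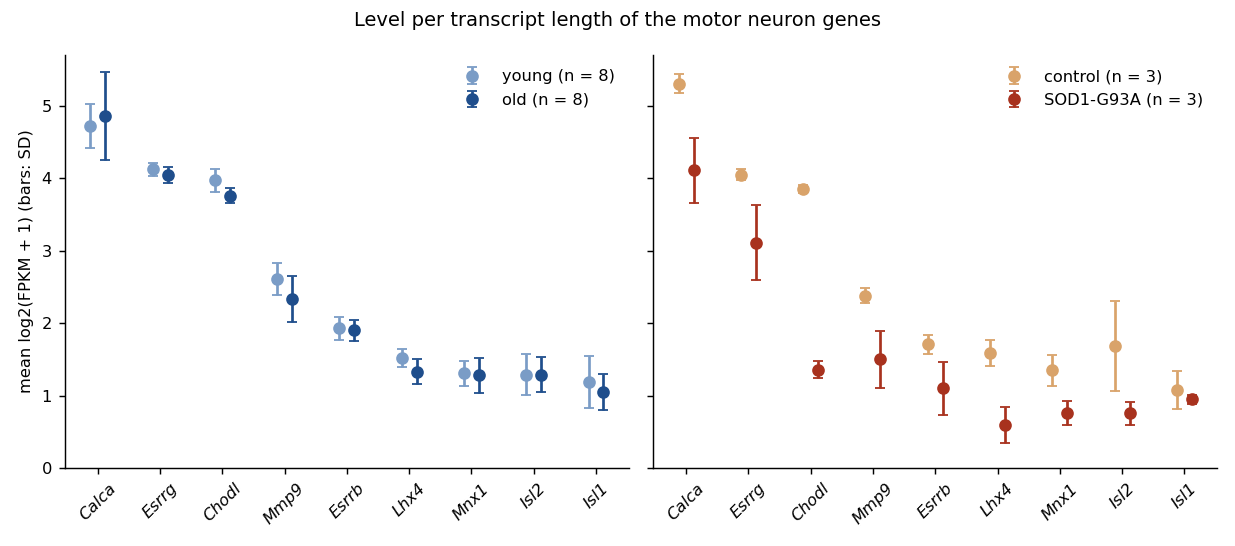
Mean level of each gene per transcript length, as log2(FPKM + 1) with SD bars, in young and old mice (left, n = 8 each) and in control and SOD1-G93A mice (right, n = 3 each), with genes in the order of the young mice. Chodl stood next to Esrrg in 3 groups and at 1.36 in SOD1-G93A mice, close to Mmp9 at 1.50.

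In symptomatic SOD1-G93A mice the fast alpha markers were far below control. Chodl, a C-type lectin-related membrane protein, was at 35.1, 35.6 and 37.4 CPM in the control libraries and at 3.64, 3.94 and 4.53 CPM in the SOD1-G93A libraries. No control library came near a SOD1-G93A library, and the 3 SOD1-G93A values rested on 43 to 45 counts each. The log2 fold change was -3.16 ± 0.13 (SE), 11.2% of the control level. Mmp9, a matrix metalloproteinase found in fast motor neurons, was at 11.6, 12.9 and 15.2 CPM in control and at 3.22, 3.76 and 6.34 CPM in SOD1-G93A libraries. The groups did not overlap, and Mmp9 stood at 33.3% of control (log2 fold change -1.59 ± 0.25). The part of other cells of the cord, such as neutrophils and macrophages, in the Mmp9 level was not tested. In RNA from whole cord, fewer motor neurons and less RNA per motor neuron cannot be told apart.

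The pan-motor-neuron genes ranged more widely. Isl2, a LIM-homeodomain factor, was at 2.66, 2.86 and 3.84 CPM in control and at 0.403, 0.627 and 1.10 CPM in SOD1-G93A libraries (log2 fold change -2.10 ± 0.39). The groups were apart, but the SOD1-G93A values rested on 4, 7 and 13 counts. Lhx4, which acts with Isl factors in early motor neurons, was at 9.99, 10.5 and 13.6 CPM in control and at 1.88, 2.46 and 4.83 CPM in SOD1-G93A libraries (-1.90 ± 0.32, 26.7% of control). Its highest SOD1-G93A library lay below its lowest control library. Mnx1, the homeodomain factor also called HB9, was at 2.47, 3.96 and 4 CPM in control and at 1.10, 1.70 and 1.71 CPM in SOD1-G93A libraries (-1.21 ± 0.32). These groups also did not overlap.

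Calca and Isl1 were nearer to control. Calca was at 19.4, 21 and 29.4 CPM in control and at 10, 14.7 and 17.4 CPM in SOD1-G93A libraries (-0.73 ± 0.22, 60.4% of control). The groups were separated by the gap between 17.4 and 19.4 CPM. Calca is also a gene of sensory neurons. The 15 sensory genes, Calca not among them, summed to 80.4 to 82.2 CPM in control and 71.8 to 74.8 CPM in SOD1-G93A libraries. Members of that list went opposite ways. Sncg was at 72.2% of control (edgeR's quasi-likelihood test, adjusted p = 0.00376) and Calcb at 70.2% (adjusted p = 0.0706), while Runx1 and Avil, named after their values were seen, were at 714% and 602%. The part of sensory fibres or ganglia in the Calca value was not tested. Isl1, which is also made by some interneurons and sensory neurons, was at 1.80, 2.10 and 4.15 CPM in control and at 1.61, 1.61 and 2.51 CPM in SOD1-G93A libraries. The groups overlapped, and the log2 fold change of -0.50 ± 0.39 did not pass the threshold. It was between -0.74 and -0.04 with 1 library left out, the latter without the control library at 4.15 CPM.

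In SOD1-G93A mice Calca was the member whose fold change was larger on the FPKM scale than on counts, at -1.18 on log2(FPKM + 1) against -0.73. The number of counts behind 1 FPKM, divided by its median over 9905 genes of the same library, follows the transcript length that RSEM assigned to a gene. For Calca it was 0.162, 0.201 and 0.234 in control and 0.255, 0.299 and 0.311 in SOD1-G93A libraries. The groups did not overlap, and in the aging libraries the ratio ran from 0.232 to 0.299 and overlapped between young and old. The Calca gene encodes both CGRP and calcitonin through alternative 3' exons of different length. Which transcripts moved was not tested. For Chodl the ratio was 0.88 to 0.888 in control and 0.862 to 0.892 in SOD1-G93A libraries. Lack of overlap was not particular to Calca. For Lhx4 the ratio was 1.79 to 1.95 in control and 1.96 in each SOD1-G93A library. For Isl2 it varied widely, from 0.299 to 0.647 in control and 0.193 to 0.424 in SOD1-G93A libraries.

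The gamma or slow markers stood near 50% of control. Esrrb, an estrogen-related nuclear receptor, was at 8.76, 10.8 and 11 CPM in control and at 3.47, 4.03 and 7.86 CPM in SOD1-G93A libraries (-1.0 ± 0.29, 49.9% of control). Esrrg, its paralog and a gene of other spinal neurons as well, was at 79.5, 79.9 and 90.8 CPM in control and at 27.9, 31.8 and 58.7 CPM in SOD1-G93A libraries (-1.09 ± 0.24, 47.1% of control). Neither gene's groups overlapped. In both, 1 SOD1-G93A library lay well above the other two.

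**Figure D2:**
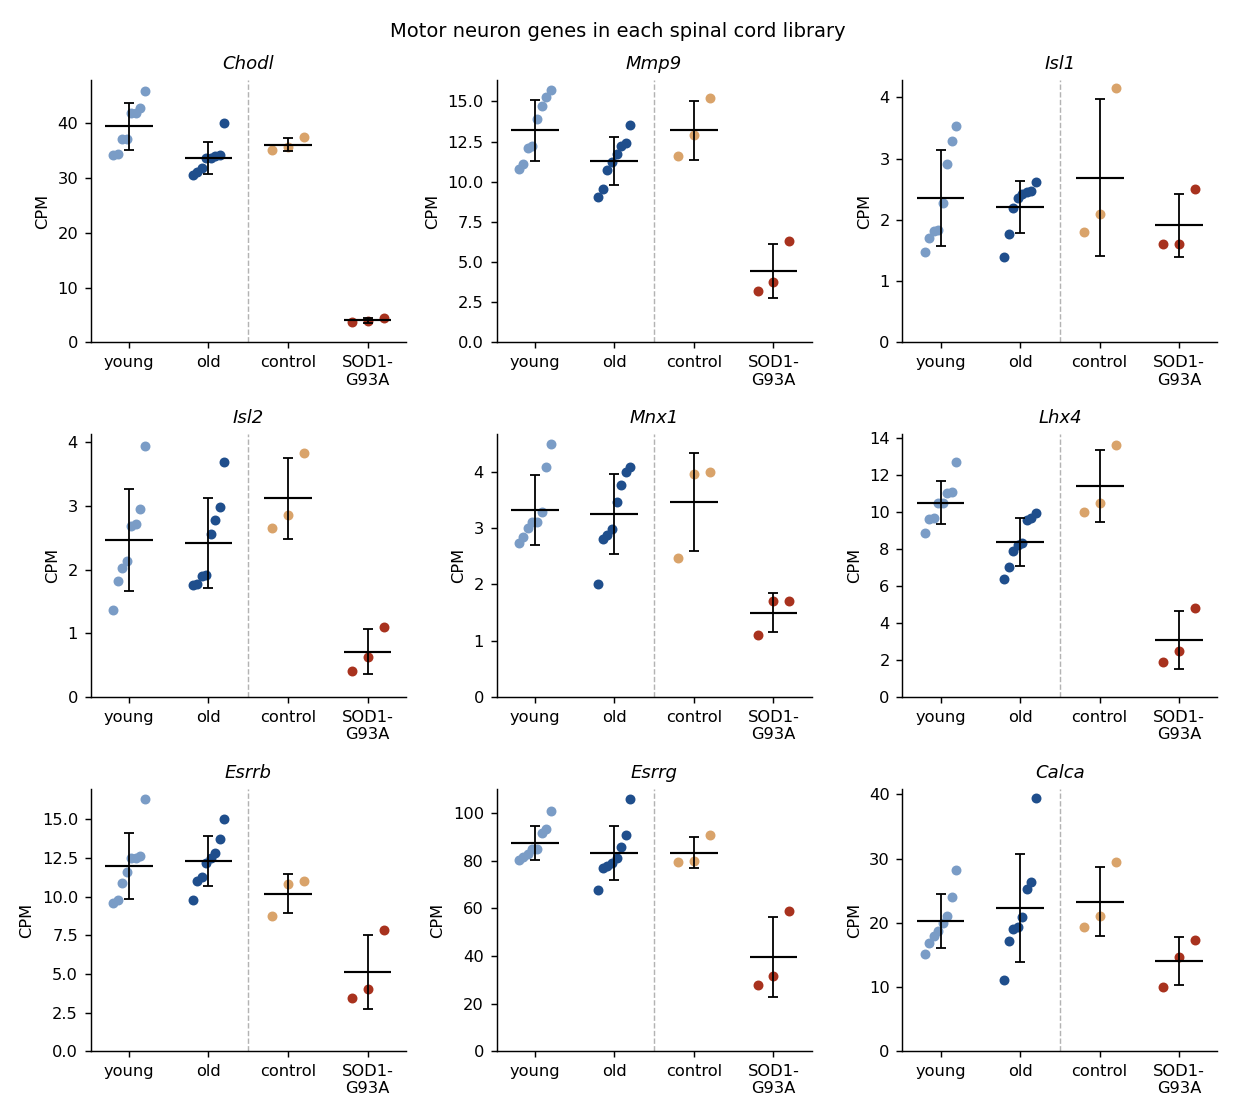
CPM of each gene in every library (points, sorted within a group), with the group mean (line) and SD (bars), for young and old mice (n = 8 each) and, right of the dashed line, control and SOD1-G93A mice (n = 3 each). SOD1-G93A libraries lay below every control library in all panels but that of Isl1, and young and old libraries overlapped in every panel.

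Counted by edgeR's quasi-likelihood test with Benjamini-Hochberg adjustment over all 14386 genes, 8 of the 9 genes were lower in SOD1-G93A mice at an adjusted p under 0.05, where 15.5% of all genes were (18.4% were higher, and none of the 9). With a log2 fold change under -1 as well, 7 of 9 were called, against 1.2% of all genes (8.5% higher by more than 1). On log2(FPKM + 1) with limma 2 of 9 were below -1, Chodl at -2.49 and Calca at -1.18, and of the 7 the 6 other than Chodl lay between -0.99 and -0.58. In 8 of 9 every SOD1-G93A library was below every control library, against 24.7% of all genes. The median log2 fold change of the 9 was -1.21, beside 0.00 for all genes. These shares are beside a choice of genes made with the comparison known, and nothing was read from them. Without 1 SOD1-G93A library (the one with the lowest Calca and Lhx4) the 8 calls became 4 and the 7 became 4. Without another SOD1-G93A library they became 5 and 4, and without 1 control library the 8 became 5. The calls of Mnx1, Esrrb, Esrrg and Calca each depended on at least 1 library, while those of Chodl, Mmp9, Isl2 and Lhx4 held in all 6 fits that left out 1 library. Mnx1 was called in 2 of these 6 fits, Esrrb in 1, Calca in 2 and Esrrg in 5.

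Most genes of a list that all neurons use were also lower in these cords. The 20 genes of the pan-neuronal list, led by Snap25 and Nefl, summed to 15117 to 15823 CPM in control and 6967 to 10604 CPM in SOD1-G93A libraries, and 18 of the 20 were lower and 1 higher at an adjusted p under 0.05. The higher one was Gap43, a growth cone protein, at 0.35 (edgeR's quasi-likelihood test, adjusted p = 0.0281), named after its values were seen. The median log2 fold change of the 20 was -0.58. Nefl, at -1.38, and Snap25, at -0.85, were lower than this median. Abundant genes weigh most in a sum, so the sum does not stand for each gene of the list. Set against that median, Chodl was at -2.58, Isl2 at -1.52, Lhx4 at -1.33 and Mmp9 at -1.01. Mnx1 (-0.64), Esrrg (-0.51) and Esrrb (-0.42) were closer to it, Calca was at -0.15, and Isl1 at 0.08.

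**Figure D3:**
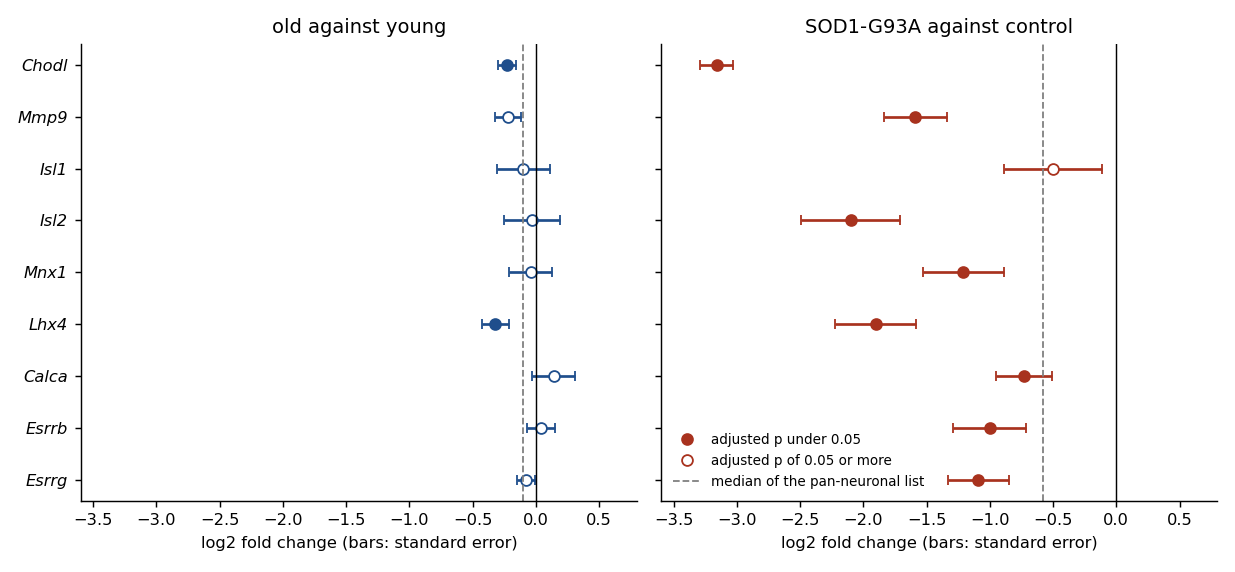
Log2 fold change of each gene (points) with its SE (bars) in old against young mice (left) and SOD1-G93A against control mice (right), filled where the adjusted p over all genes was under 0.05, with the median of the 20 pan-neuronal genes as a dashed line. Chodl at -3.16 lay farthest from the dashed line at -0.58, and Isl1 and Calca lay within their SE of it.

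Glial genes moved the other way in the same libraries. The 11 microglia and macrophage genes, C1qa among them, summed to 383 to 464 CPM in control and 1609 to 3108 CPM in SOD1-G93A libraries, and 9 of the 11 were higher by more than 1 on the log2 scale at an adjusted p under 0.05. The 6 astrocyte genes, led by Gfap and Slc1a2, summed to 5239 to 5777 and 10822 to 17296 CPM, and 5 of the 6 were higher. The 12 neutrophil genes, led by Lcn2 and S100a9, summed to 0.307 to 2.02 and 3.42 to 26.6 CPM, with Ly6g and Cxcr2 at 0 in all 6 libraries. Only Lcn2 of the 12 passed the filter on low counts and was tested, so the sum does not stand for neutrophils as a whole. The part of these cells in the lower share of motor neuron RNA was not tested.

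One SOD1-G93A library, the second in the plot of libraries against the control mean, combined the lowest glial with the highest neuronal sums. Its microglial sum was 383% of the control mean, against 741% and 581% in the others, and its pan-neuronal sum 68.5%, against 45% and 51.2%. The same library had the highest Esrrb (77.2% of the control mean, against 34.1% and 39.6%), Esrrg (70.4%, against 33.5% and 38.1%) and Lhx4 (42.5%, against 21.6% and 16.5%). It was also highest for Mmp9, Calca and, by a small margin, Mnx1. Chodl differed less between the libraries, at 12.6% in this library and 10.1% and 10.9% in the others, and Isl2 was lowest there, at 12.9% on 4 counts. Without this library the log2 fold change was -1.43 for Esrrb, -1.48 for Esrrg, -2.37 for Lhx4 and -1.92 for Mmp9, the lower end over all 6 omissions.

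**Figure D4:**
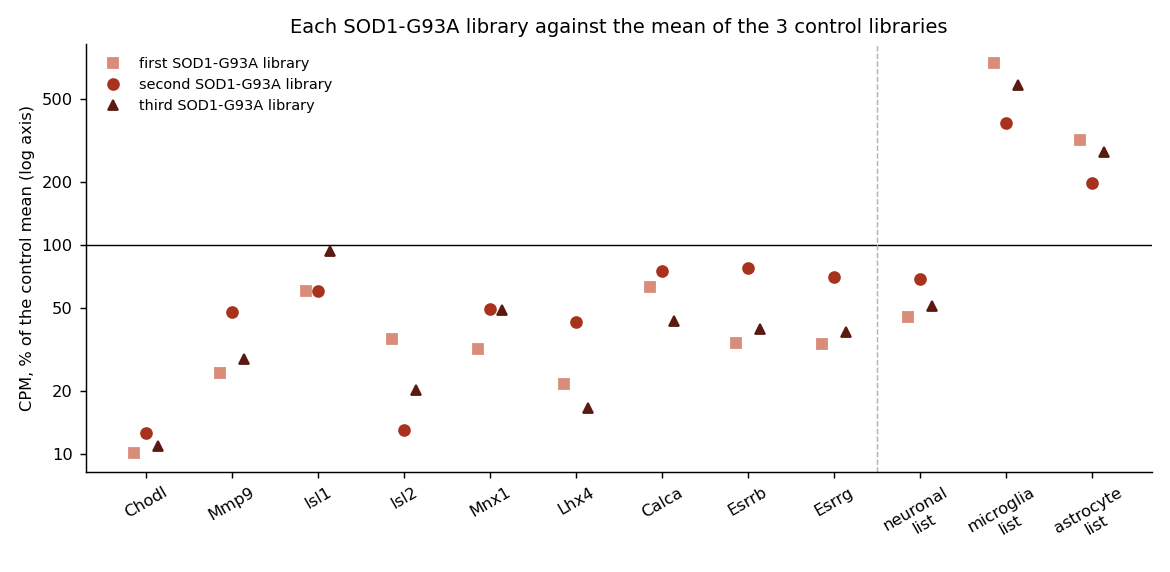
CPM of each gene, and summed CPM of the neuronal, microglia and astrocyte lists, in each of the 3 SOD1-G93A libraries as a percentage of the mean of the 3 control libraries (log axis; line at 100%). The second library had the highest neuronal (68.5%) and lowest microglial (383%) sums and the highest Esrrb, Esrrg, Lhx4 and Mmp9, while Chodl lay between 10.1% and 12.6% in all 3.

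With age the same 9 genes differed little. Chodl was at 34.1 to 45.7 CPM (median 39.4) in young and 30.4 to 39.9 CPM (median 33.5) in old libraries. The groups overlapped, with 1 old library at 39.9 CPM above the other old libraries, and the log2 fold change of -0.23 ± 0.07 (85.3% of young) passed the threshold. Mmp9 was at 10.8 to 15.7 CPM (median 13) in young and 9.03 to 13.5 CPM (median 11.5) in old libraries. Its log2 fold change of -0.22 ± 0.10 was as large as that of Chodl, with a wider error, and did not pass.

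Of the pan-motor-neuron genes, Lhx4 was lower with age. It was at 8.89 to 12.7 CPM (median 10.5) in young and 6.39 to 9.97 CPM (median 8.27) in old libraries, a log2 fold change of -0.32 ± 0.11 (80.2% of young). The call was lost without 1 young library (-0.27) and without either of 2 old libraries (-0.27 and -0.29), in a single fit of all 22 libraries at the same -0.32, and with limma on log2(FPKM + 1) at -0.19. Isl1 had medians of 2.06 CPM in young and 2.39 CPM in old (-0.10 ± 0.21), Isl2 of 2.41 and 2.24 CPM (-0.03 ± 0.22) and Mnx1 of 3.11 and 3.23 CPM (-0.04 ± 0.17). These 3 genes rested on 11 to 41 counts a library, and their groups overlapped almost fully. A change of the size seen in Lhx4 would be within 2 SE for each of them.

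Calca was the most variable member in old cords. It was at 15.2 to 28.2 CPM (median 19.4) in young and 11.1 to 39.4 CPM (median 20.1) in old libraries (0.14 ± 0.17). Its coefficient of variation was 37.5% in old and 20.7% in young mice, beside 7.77% and 7.93% from counting alone. The difference in spread was not tested. The lowest value belonged to an old library that also had the lowest Mnx1 of its group (2.01 CPM), the highest Isl2 (3.70 CPM) and Esrrg (106 CPM), the highest pan-neuronal sum (15078 CPM) and the lowest microglial sum (653 CPM, the others up to 1089 CPM). The 15 sensory genes summed to 87.3 to 102 CPM in young and 88.6 to 123 CPM in old libraries, and their part in the spread of Calca was not tested.

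The gamma or slow markers did not pass with age. Esrrb was at 9.61 to 16.3 CPM (median 12) in young and 9.81 to 15 CPM (median 12.4) in old libraries (0.04 ± 0.11). Esrrg was at 80.3 to 101 CPM (median 84.8) in young and 67.7 to 106 CPM (median 80.1) in old libraries (-0.08 ± 0.07). The ranges of both genes overlapped across most of their width.

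Other cell types differed with age in the same libraries. The 20 pan-neuronal genes summed to 13337 to 14954 CPM in young and 11836 to 15078 CPM in old libraries, with 8 of the 20 lower and 1 higher at an adjusted p under 0.05. The microglia and macrophage sum was 373 to 419 CPM in young and 653 to 1089 CPM in old libraries, with 10 of 11 genes higher, and the astrocyte sum 5631 to 6203 and 6535 to 7231 CPM, with 3 of 6 higher and 1 lower. The neutrophil sum was 0.791 to 9.79 and 1.23 to 5.85 CPM, with Ly6g and Elane at 0. Their part in the lower Chodl and Lhx4 was not tested.

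By the same test over 13647 genes, 2 of the 9 were lower with age at an adjusted p under 0.05, beside 12.9% of all genes lower and 13.5% higher, and none of the 9 was higher. None passed by more than 1 on the log2 scale up or down, which 0.044% of all genes did downward and 2.18% upward. In none of the 9 were all old libraries below all young ones, beside 1.66% of all genes. The median log2 fold change of the 9 was -0.08, that of the pan-neuronal list -0.10 and that of all genes -0.00. Side by side, the log2 fold changes with age and with SOD1-G93A were -0.23 and -3.16 for Chodl and -0.32 and -1.90 for Lhx4. The difference between the comparisons was not tested, since the library kit and the experiment cannot be told apart.

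Over the 16 aging libraries, with the group means removed, correlations between the members were of both signs. For the 6 members with a median of at least 50 counts (Chodl, Mmp9, Lhx4, Esrrb, Esrrg and Calca), the 15 pairs had a median correlation of log2 CPM of -0.09, and 6 of the 15 were positive. The extremes were 0.45 for Esrrb with Esrrg and -0.60 for Lhx4 with Calca. The extremes varied with the setting. On log2(FPKM + 1) they were 0.26 for Chodl with Mmp9 and -0.45 for Esrrg with Calca, and in young libraries alone Esrrb with Esrrg reached 0.82. The median over pairs was -0.18 in young and 0.04 in old libraries alone. Esrrg was the member closest to neurons in general, with a median correlation of 0.56 to the 20 pan-neuronal genes and its nearest genes Dnm3 (0.93), Arl5a (0.92) and Casc4 (0.91), named after their values were seen. Chodl had 0.06 and Mmp9 0.04 with that list. Points in these correlations share a library and its depth. Counting noise also draws the correlations toward 0. For Lhx4 the coefficient of variation was 11.1% in young and 15.5% in old mice, beside 11% and 12.7% from counting alone. Esrrg was farther above counting, at 8.18% beside 3.83% in young mice. A shared pattern could therefore be missed.

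Of 13646 other genes, the 3 with the most similar pattern over those 16 libraries were Nkx2-2 (0.85), A930017K11Rik (0.79) and Nr6a1 (0.78) for Chodl and Rcn2 (0.81), Slc25a24 (0.79) and Zswim4 (0.79) for Mmp9. For Calca they were Cp (0.85), Ptprc (0.84) and Uts2 (0.83), of which Uts2 encodes the motor neuron peptide urotensin and Ptprc the leukocyte surface protein CD45. For Isl1 they were Tnfrsf13c (0.80), Zswim6 (0.79) and Igf2 (0.76), and for Isl2 Mapk1ip1 (0.84), Ift22 (0.82) and Nrgn (0.82), both on low counts. These are the top of a ranking and describe these libraries only.

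A wider list of 50 motor neuron genes, none of them a member, was arranged by role, and 48 passed the filter on low counts. In SOD1-G93A mice 20 of the 48 were lower and 6 higher at an adjusted p under 0.05 (edgeR's quasi-likelihood test, Benjamini-Hochberg), beside 15.5% of all genes lower and 18.4% higher, with a median log2 fold change of -0.42. The share higher was below that of all genes. The 20 became 12 without 1 control library and 12 without the SOD1-G93A library of lowest Calca. Of the 10 genes in the list named cholinergic, 5 fell and 2 rose. That list also holds genes that do not handle acetylcholine, among them Prph, Anxa4 and Uts2. The 2 that rose, Anxa4 and Uts2, are of this kind. Chat and Ache, which do handle it, are named after their values were seen. Ache fell to 59.9% of control (adjusted p = 0.0046), and Chat, at 62.9%, did not pass (adjusted p = 0.0708). Slc5a7, which takes choline back into the terminal, was at 112 to 125 CPM in control and 46.6 to 60.1 CPM in SOD1-G93A mice (-1.08 ± 0.11, adjusted p = 0.000344), and Slc18a3, which loads acetylcholine into vesicles, fell to 54.5% of control (adjusted p = 0.000417). Prph, an intermediate filament of motor and sensory axons, fell by 0.66 on the log2 scale (adjusted p = 0.00458). Anxa4, a calcium-dependent membrane-binding protein, rose (1.38 ± 0.22, adjusted p = 0.00252), as did Uts2 (1.21 ± 0.27, adjusted p = 0.00949).

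Of the 8 other alpha and fast genes, 5 fell in SOD1-G93A mice. Vipr2, a receptor for the peptide VIP, went from 5.12 to 6.15 CPM in control to 1.36 to 1.88 CPM (-1.76 ± 0.24, adjusted p = 0.00132), the deepest of the wider list. Sv2b, a synaptic vesicle protein, fell by 1.18 on the log2 scale (adjusted p = 0.00336), Rbfox3, which encodes the neuronal antigen NeuN, by 0.74 (adjusted p = 0.00547), and the potassium channel gene Kcnq5 by 0.86 (adjusted p = 0.0111). Spp1, osteopontin, is listed as an alpha marker and went the other way, from 126 to 130 CPM in control to 465 to 925 CPM (2.46 ± 0.22, adjusted p = 0.000199). Spp1 is also made by activated microglia and macrophages, and their part in its level was not tested.

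Among the 9 tested gamma and slow genes 2 fell and 2 rose. The transcription factor gene Npas1 (-0.71 ± 0.20, adjusted p = 0.0242) and the vesicle protein gene Sv2a (-0.40 ± 0.13, adjusted p = 0.0357) fell. Prkcd, a protein kinase C, rose (1.34 ± 0.25, adjusted p = 0.00538), and so did Gfra1, a receptor for the trophic factor GDNF (0.44 ± 0.13, adjusted p = 0.0316). The part of other cells, such as microglia and macrophages, in the level of Prkcd was not tested in either comparison. Among the 18 transcription factor and guidance genes 7 fell and 1, Nkx6-1 (0.87 ± 0.23, adjusted p = 0.0186), rose. The fallen ones included Slit2 (-1.14 ± 0.22, adjusted p = 0.00601) and Slit3 (-0.88 ± 0.18, adjusted p = 0.00704), secreted axon guidance cues, and Ret (-0.49 ± 0.09, adjusted p = 0.0046), the signalling receptor for GDNF. Of 3 tested visceral motor neuron genes, Nos1, a nitric oxide synthase, fell (-0.67 ± 0.11, adjusted p = 0.00345), while Zeb2 (0.09 ± 0.10, adjusted p = 0.533) and Fbn2 (0.03 ± 0.22, adjusted p = 0.932) did not pass.

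With age 7 of the 48 were lower (3 with limma on log2(FPKM + 1)) and 4 higher, shares near or below those of all genes (12.9% lower and 13.5% higher). The median log2 fold change was -0.08, with Spp1 (1.08 ± 0.10, adjusted p = 3.28e-08) the 1 gene beyond 1. Prkcd (0.46 ± 0.08, adjusted p = 0.000164), Anxa4 (0.74 ± 0.13, adjusted p = 0.000177) and Pou3f1 (0.52 ± 0.12, adjusted p = 0.00271, named after its values were seen) also rose. Alcam, an adhesion molecule (-0.29 ± 0.05, adjusted p = 0.000292), Slit2 (-0.29 ± 0.07, adjusted p = 0.00244), Fbn2, a microfibril protein (-0.56 ± 0.17, adjusted p = 0.0183), and Creb5 (-0.32 ± 0.10, adjusted p = 0.0198) fell. The cholinergic genes Slc5a7 (-0.13 ± 0.07, adjusted p = 0.206) and Slc18a3 (0.02 ± 0.07, adjusted p = 0.839) did not pass, nor did Nos1 (-0.15 ± 0.06, adjusted p = 0.0635) or Kcnq5 (-0.18 ± 0.09, adjusted p = 0.145). Without the old library of highest neuronal sum, 13 of the wider list were lower.

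**Figure D5:**
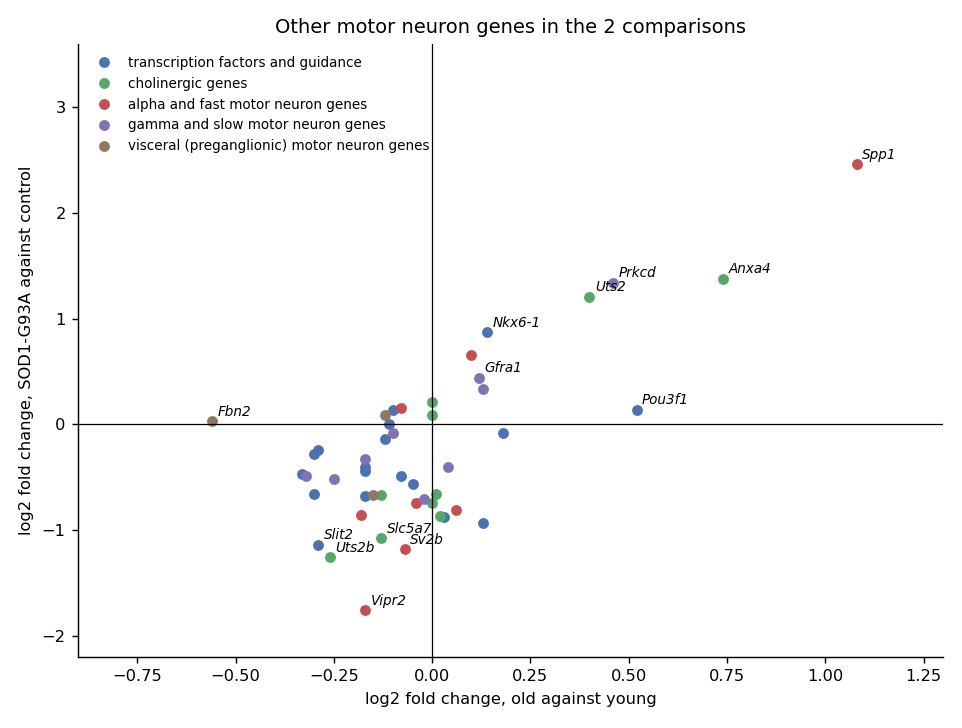
Log2 fold change of the 48 tested genes of the wider list in old against young mice (horizontal) and in SOD1-G93A against control mice (vertical), coloured by role, with names for genes far from the rest. Spp1 (1.08 and 2.46) stood at the upper right and Vipr2 (-0.17 and -1.76) at the bottom.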

How the data were processed

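RNA-seq of whole mouse spinal cord was analysed in 22 libraries of 4 groups, assigned from the labels and the column names. The authors used STAR, RSEM and SAMtools 1.3 with an Ensembl annotation of mm10. The authors deposited a table of expected counts from RSEM, not normalized, and a table of log2 values, which are log2 of FPKM plus a pseudocount of 1. Whether strand was used in counting is not given in the sources used here.

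Expected counts were rounded. For each comparison, genes were kept by edgeR's filterByExpr (minimum count 10, minimum total 15), scaled by TMM and tested with edgeR's quasi-likelihood test (edgeR 4.0.16, R 4.3.3) with p-values adjusted by Benjamini-Hochberg across every tested gene. Genes were called at an adjusted p of 0.05, alone or with a log2 fold change beyond 1. On simulated counts with 200 changed genes at a log2 fold change of 1.5, the test recovered 98.5% of them in the aging design (13578 genes) and 92.5% in the SOD1-G93A design (14258 genes). Of all its calls, 2.48% in the aging design and 8.42% in the SOD1-G93A design fell on unchanged genes. The second share is above the threshold of 0.05. The counts were drawn with edgeR's own estimates of spread. Changes as small as those of the members with age, such as -0.32 for Lhx4, were not simulated, so their recovery is not known. DESeq2 1.42.0, limma 3.58.1 and further settings were alternatives. Annotation was GENCODE M21, which held 21842 of the 21995 gene identifiers, and promoter sequence was from RefSeq on GRCm38.p6.

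The members and the gene lists were chosen with earlier results of these data known. Genes outside the 9 were named by rule: from each role group of the wider list the 4 with the smallest p in SOD1-G93A against control and the 2 in old against young, the 2 most abundant of each marker list with any at 0, and for 5 members the 3 genes with the highest correlation among those with a mean of at least 1 CPM. Exceptions are marked in the text, and some genes that the rule picks are not reported here. The count-per-FPKM ratio was added after the data were seen. Libraries are 1 per mouse by the study's methods. No pair of libraries in a group agreed within sampling noise. Depth ran from 5078092 to 13219797 counts. The smallest level that counting can show differs between the experiments accordingly.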

Additional observations from a re-analysis of the deposited data

Results flagged for a closer look

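Of 18 sets of 8 libraries (9 genes in young and in old mice), 2 had a library that stood apart from the rest by Dixon's gap test at a critical ratio of 0.526. Esrrb was at 16.3 CPM in 1 young library, where the next was at 12.6 CPM (gap over range 0.552). Chodl was at 39.9 CPM in 1 old library, where the next was at 34.1 CPM (0.609). Chance flags about 1 in 20 such sets, so 2 of 18 is little more than that. Leaving out any single library kept the Chodl log2 fold change between -0.27 and -0.20 and its call in 16 of 16 fits.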

How the results depend on the processing

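No called fold change of a member changed direction under the alternatives run. Uncalled ones near 0 did cross it, such as Isl1 with age (-0.17 to 0.01 with a library left out), Calca with age (-0.03 to 0.24) and Isl1 in SOD1-G93A mice (0.08 against the pan-neuronal median). With age, the 2 members lower became 1 in a single fit of all 22 libraries and 1 with limma on log2(FPKM + 1), and 1 to 2 with a library left out. The 7 lower genes of the wider list became 3 with limma and 5 to 13 with a library left out. In SOD1-G93A mice the 8 lower members became 4 to 8 with a library left out. The 7 lower by more than 1 were 2 with limma, Chodl and Calca, of which Calca was not among the 7, and 4 to 7 with a library left out. The 20 lower genes of the wider list became 12 to 25 with a library left out, and the 5 lower by more than 1 became 2 with limma and 2 to 7 with a library left out. The pseudocount of 1 in the FPKM values draws low genes toward 0. Chodl was -2.49 there. Chodl, Mmp9, Isl2 and Lhx4 kept their call in 6 of 6 omissions in SOD1-G93A mice, and all 8 called members kept it under the 5 other settings. The cause of the other changes was not tested. Of 130 refits of a called member, 111 kept the call and 19 lost it, and none of 158 refits of an uncalled member gained one. No paired analysis was possible because neither litter nor sex is given per library, and the columns carry no replicate numbers. Depth limits Isl1, Isl2 and Mnx1 most, at 4 to 54 counts a library.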
